A study of Mus musculus with 14 samples.

Results

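The genes described are 10 genes of purine salvage and nucleoside handling, taken by symbol out of the 54532 genes in the deposited table. They are Nt5e and Ada, which act on adenosine outside and inside the cell, the transporter gene Slc28a2, the phosphorylase genes Pnp and Pnp2, Gda and Xdh of purine breakdown, and Hprt, Adk and Ampd3, which make or deaminate nucleotides. All 10 passed the filter on low counts, and 13846 genes in all were tested. The 10 genes were selected on earlier results of this same contrast between genotypes, so their differences are given as a description and without p-values.

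RNA came from scraped ileum mucosa of male mice on a high-fat diet (HFD) for 15 weeks, with 1 library per mouse. The 7 WT mice carried floxed NCoR1 alleles (NCoR1 flox/flox) and no Cre. The 7 IKO mice carried the same floxed alleles and a Cre recombinase under the villin promoter, which deletes NCoR1 (gene Ncor1), a corepressor of nuclear receptors, in intestinal epithelial cells (IECs) and not in the other cells of the mucosa. An age of 7 to 8 weeks at the start of feeding is stated in the methods, but the ages given in the sources used here differ. The labels call the material IECs, but blood, muscle and connective tissue genes were also counted in it.

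Purine nucleotides are continually broken down to nucleosides and bases, and salvage enzymes turn these back into nucleotides, which costs far less energy than building the ring anew. At the cell surface CD73, the product of Nt5e, removes the phosphate from AMP and releases adenosine, a signal as well as a nutrient. Concentrative transporters bring nucleosides into the enterocyte, adenosine deaminase converts adenosine to inosine, purine nucleoside phosphorylase splits inosine and guanosine into bases, and these are either salvaged by HPRT or oxidized by guanine deaminase and xanthine dehydrogenase toward urate. The small intestine takes in dietary nucleosides and is known for high adenosine deaminase and xanthine oxidoreductase activity.

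Levels are given as CPM, the counts of a gene scaled to a common library size, on library sizes scaled with TMM factors. Fold changes are IKO over WT from edgeR's quasi-likelihood fit, and a gene is called when its Benjamini-Hochberg adjusted p over the 13846 genes is under 0.05. Of all genes tested, 8.67% were called, 4.38% higher and 4.28% lower in IKO mice. Every IKO mouse lay above every WT mouse for 1.83% of the genes and below every WT mouse for 1.26%. The median log2 fold change was -0.09 over all genes tested and 0.35 over the 10 genes. A log2 fold change above 0 was found for 43.5% of all genes tested. Of the 10, 2 were called, both of them higher (Pnp and Pnp2), and the same 2 were the only ones whose genotypes did not overlap. Since the genes were selected on this contrast, nothing is read from these counts. The fitted difference exceeded 1.5-fold for 6 of the 10 genes, but the share of all genes above 1.5-fold was not taken. The 95% interval included no change for 5 of the 10. An interval that leaves out 0 matches an unadjusted edgeR p under 0.05, which 4213 of the 13846 genes tested reached. Counts at an unadjusted p given below for lists of genes are to be read beside that number. Nothing is read from the counts of the 10 genes here either.

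Libraries held between 14749669 and 21557468 counts. WT 4 held far more smooth muscle RNA than the others, with 10837 CPM summed over 5 muscle genes against at most 61.9 in the other WT mice. In IKO mice this sum had a median of 9.55 CPM and reached 794 CPM. The share of mitochondrially encoded RNA was 50.3% for IKO 4 and 23.9% for WT 3, against 3.49% to 10.3% for the other 12 libraries. IKO 4 therefore rests on the fewest usable counts. Ncor1 was lower in every IKO mouse (31.7 to 64.0 CPM) than in every WT mouse (106 to 195 CPM), a log2 fold change of -1.41 (standard error 0.18, edgeR adjusted p = 0.00051), with reads over the whole gene counted, and not the deleted exons alone. The 6 epithelial marker genes all had fitted values above 0 in IKO mice (median log2 fold change 0.42), but 3 of 6 with total counts in place of TMM scaling (median 0.07). They summed to between 10168 and 17705 CPM in WT and between 14939 and 21393 CPM in IKO mice, and 0 of the 6 were called, with 1 at an unadjusted edgeR p under 0.05 and 1 called by DESeq2. Their part in the higher levels of genes described here was not tested. In bulk mucosa, fewer cells of a type and less RNA per cell cannot be told apart.

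**Figure D1:**
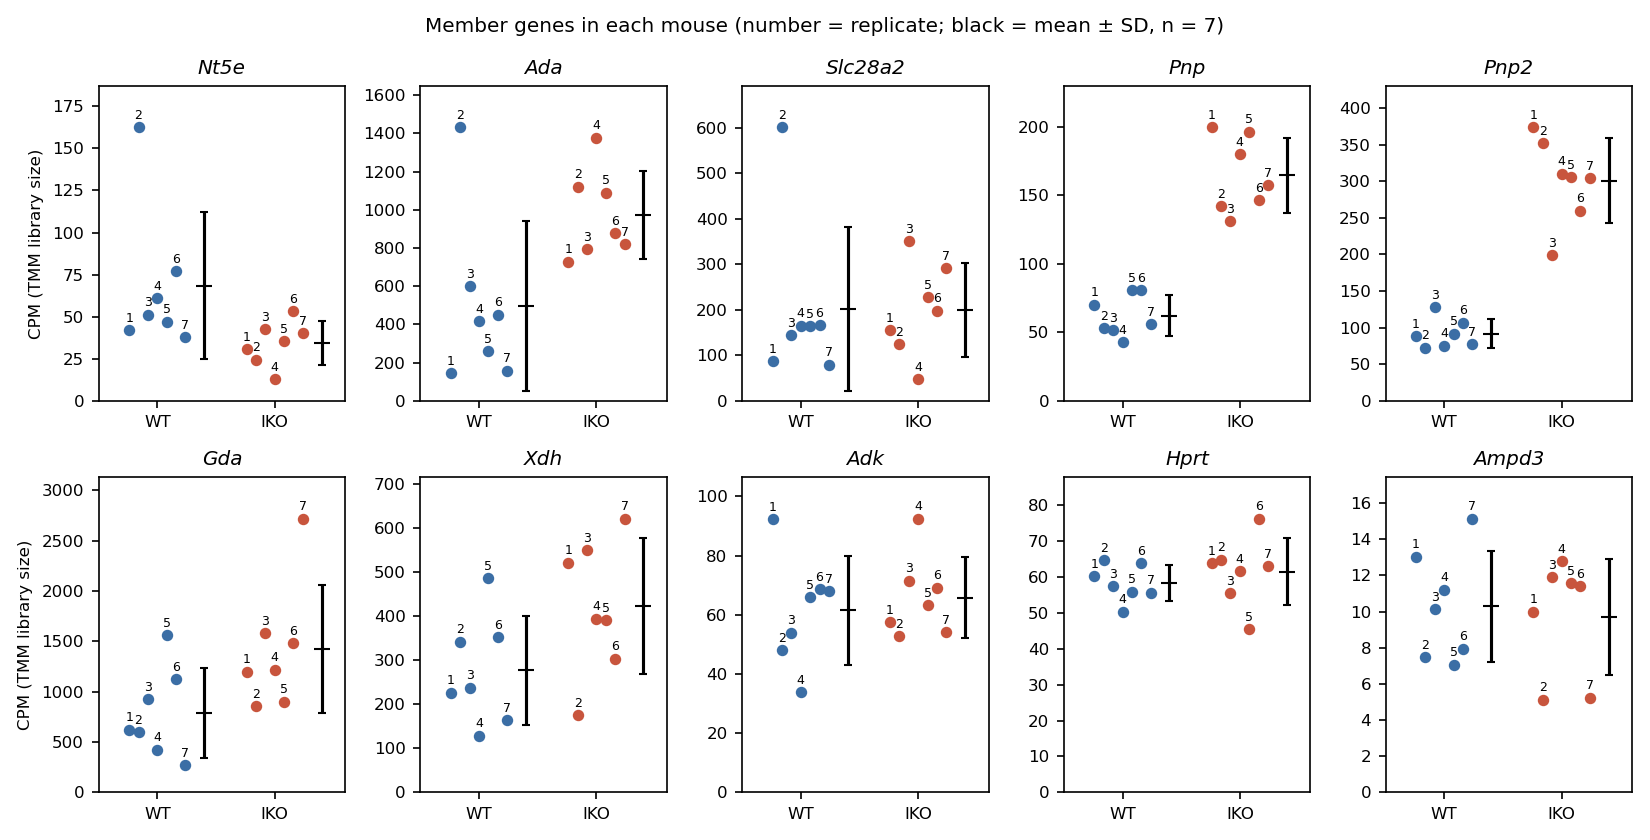
CPM (vertical axis, linear from 0, TMM library size) of the 10 genes in each of 7 WT (blue) and 7 IKO (red) mice, with the replicate number above each point and the mean ± SD in black. Only Pnp and Pnp2 show no overlap between the genotypes, and WT 2 is the highest WT point for Nt5e (163 CPM), Ada (1433 CPM) and Slc28a2 (601 CPM).

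Pnp and Pnp2 encode closely related purine nucleoside phosphorylases, and they had the highest fold changes of the set. Both lie on the plus strand of chromosome 14 in build mm10 (GRCm38), Pnp from 50931082 to 50965237 and Pnp2 from 50955992 to 50964749, so that the span of Pnp contains the whole of Pnp2. Their annotated exons share 0 bases. The copies are nearly identical in sequence: across exons 2 to 5 of the main transcripts, which are coding throughout, 636 of 641 bases match (99.2%). Exon 4 (176 bases) has 0 differences, exon 2 has 1, and exons 3 and 5 have 2 each. Exon 3 is printed to show how little separates the genes, from GENCODE transcripts on GRCm38, plus strand, at chr14:50950258-50950361 for Pnp and chr14:50963105-50963208 for Pnp2, with capitals at the bases that differ between them.
Pnp: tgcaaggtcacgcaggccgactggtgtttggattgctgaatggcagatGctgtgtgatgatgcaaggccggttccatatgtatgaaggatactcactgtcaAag
Pnp2: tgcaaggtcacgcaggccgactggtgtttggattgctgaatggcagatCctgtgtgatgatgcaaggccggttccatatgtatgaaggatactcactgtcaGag

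The longest stretch found unchanged in both transcripts was 292 bases. Of all windows of 50 bases, 15.1% of those in the Pnp transcript occur exactly in Pnp2, and 33.1% of those in the shorter Pnp2 transcript occur exactly in Pnp. The reads were paired and longer than these windows, so these are not shares of reads that match both copies. How reads that match both copies were counted is not given in the sources used here, so the share of each copy is uncertain, while their sum depends less on it.

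For Pnp, WT mice had between 42.6 and 80.8 CPM with a median of 56.1, and IKO mice between 131 and 199.6 CPM with a median of 157. The lowest IKO mouse was thus above the highest WT mouse. The fitted fold was 2.65 (95% interval 2.04 to 3.43), and means were 62.1 ± 15.1 CPM in WT and 165 ± 27.3 CPM in IKO mice (SD, n = 7 each).

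For Pnp2, WT mice had between 72.6 and 127.6 CPM with a median of 88.4, and IKO mice between 199 and 374 CPM with a median of 306. Again every IKO mouse was above every WT mouse. The fold from the fit was 3.28 (95% interval 2.51 to 4.29), with means of 91.5 ± 19.8 CPM in WT and 301 ± 58.0 CPM in IKO mice (SD, n = 7 each). Added together, the 2 copies gave 118 to 188 CPM in WT and 329.6 to 573 CPM in IKO mice, a fold of 3.03 (95% interval 2.35 to 3.89).

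The ratio of Pnp2 counts to Pnp counts within a library is free of the scaling between libraries. It ran from 1.13 to 2.47 with a median of 1.37 in WT mice, and from 1.52 to 2.48 with a median of 1.77 in IKO mice. The genotypes overlapped, since WT 3 (2.47) and WT 4 (1.77) reached the IKO range. WT 3 is the library with 23.9% mitochondrial counts, and its part in this ratio was not tested.

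The promoter of Pnp is shown because this gene has the highest fitted fold among the members with an entry in the RefSeq promoter table of GRCm38.p6 (8 of the 10 genes, 11 promoters). The first 250 bases of its window are given 5′ to 3′, up to the annotated start, at chr14:50944053-50944302 on the plus strand. Capitals mark matches on either strand to a GC box (GGGCGG) or a CCAAT box.
Pnp: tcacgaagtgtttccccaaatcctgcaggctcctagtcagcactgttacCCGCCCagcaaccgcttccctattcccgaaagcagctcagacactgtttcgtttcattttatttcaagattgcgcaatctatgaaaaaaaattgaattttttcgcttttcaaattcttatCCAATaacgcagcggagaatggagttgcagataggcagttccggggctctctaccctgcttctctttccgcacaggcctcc

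Over windows of 300 bases (250 before and 50 after the start), a GC box was found in 6 of the 11 promoters, of Ada, Adk, Hprt, Nt5e and Pnp, and in 35.7% of all 32851 promoters. A CCAAT box was found in 8 of the 11, of Ada, Adk, Ampd3, Gda, Pnp and Slc28a2, against 37.4% of all. The nuclear receptor core site AGGTCA, searched on both strands, was in 0 of the 11 and in 16.3% of all promoters. Such sites in tandem with 1 base between them (DR1) were in 0 of the 11 and in 0.0396% of all, and TATAAA in 0 of the 11 and in 13.6% of all. The windows of Pnp and Nt5e differed in base composition, with 47.3% and 71.0% G and C, against a median of 52.7% over all promoters. These matches describe letters in short windows and say nothing about bound factors.

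Nt5e, which releases adenosine from AMP at the apical surface, was the member with the lowest fold. WT mice had between 38.0 and 163 CPM with a median of 51.3, and IKO mice between 13.0 and 53.1 CPM with a median of 35.4. The groups overlapped, with 4 IKO mice under the lowest WT mouse and 1 IKO mouse above the WT median. IKO over WT the fold was 0.501 (95% interval 0.302 to 0.830). WT 2 was the highest and IKO 4 the lowest of the 14 mice, and without WT 2 the log2 fold change went from -0.997 to -0.62. Fibroblasts and lymphocytes also express this gene. Of 4 fibroblast markers tested, all 4 had lower fitted levels in IKO mice and 0 were called, with 3 at an unadjusted edgeR p under 0.05 and 1 called by DESeq2. Fibroblast markers summed to 5.18 to 249 CPM in WT, where WT 4 was the highest, and to 6.20 to 34.0 CPM in IKO mice. Of 6 leukocyte markers, 5 had lower fitted levels and 0 were called, with 3 at an unadjusted p under 0.05 and 1 called by DESeq2. Their sums overlapped (2297 to 2828 CPM in WT and 1609 to 3610 CPM in IKO mice). Cd74, the 1 marker with a fitted value above 0, made up most of these sums (means of 2145 CPM in WT and 2267 CPM in IKO mice). The sums therefore say little about the other leukocyte markers. The part of fibroblasts and leukocytes in the Nt5e difference was not tested.

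Slc28a2 encodes the purine-selective concentrative nucleoside transporter CNT2, which carries adenosine, inosine and guanosine into the cell with sodium. WT mice had between 79.5 and 601 CPM with a median of 165, and IKO mice between 47.3 and 350.5 CPM with a median of 198. The groups overlapped throughout, with 4 IKO mice above the WT median and 1 below the lowest WT mouse. The fitted fold was 0.992 with a 95% interval from 0.504 to 1.95, and without WT 2 the log2 fold change went from -0.01 to 0.57. A near copy of the gene, listed as Gm14085, had 1 to 94 counts per mouse, at most 1.35% of the Slc28a2 counts of the same library.

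Ada, adenosine deaminase, had between 146 and 1433 CPM in WT mice with a median of 416, and between 728 and 1377 CPM in IKO mice with a median of 878. All 7 IKO mice were above the WT median, and 6 of 7 WT mice were below the lowest IKO mouse. WT 2 was the exception, with the highest level of the 14 mice. The fitted fold was 1.96 (95% interval 1.05 to 3.68), and without WT 2 the log2 fold change went from 0.97 to 1.52. The spread differed between the genotypes: the highest WT mouse had 9.79 times the level of the lowest, and the highest IKO mouse 1.89 times.

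Because Ada acts on the product of Nt5e, the ratio of their counts was taken in each library, a choice made after the values were seen. It ran from 3.49 to 11.7 with a median of 5.86 in WT mice, and from 16.5 to 106 with a median of 23.8 in IKO mice. Every IKO mouse was above every WT mouse, including WT 2 at 8.81, since Ada and Nt5e were high together in that mouse. The highest ratio, 106, was that of IKO 4, where Nt5e rested on 119 counts. The ratio compares RNA of different gene lengths, so only its difference between mice can be read, and not its size. It joins a gene with a higher and a gene with a lower fitted level out of genes selected on this contrast, so nothing is read from the separation. Of the other ratios taken in the same way, Ada over Adk (1.59 to 29.8 in WT and 11.1 to 21.3 in IKO mice) and Xdh over Hprt (2.56 to 8.71 and 2.72 to 9.94) overlapped between the genotypes, and Pnp over Hprt (0.820 to 1.45 and 1.92 to 4.32) did not.

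**Figure D2:**
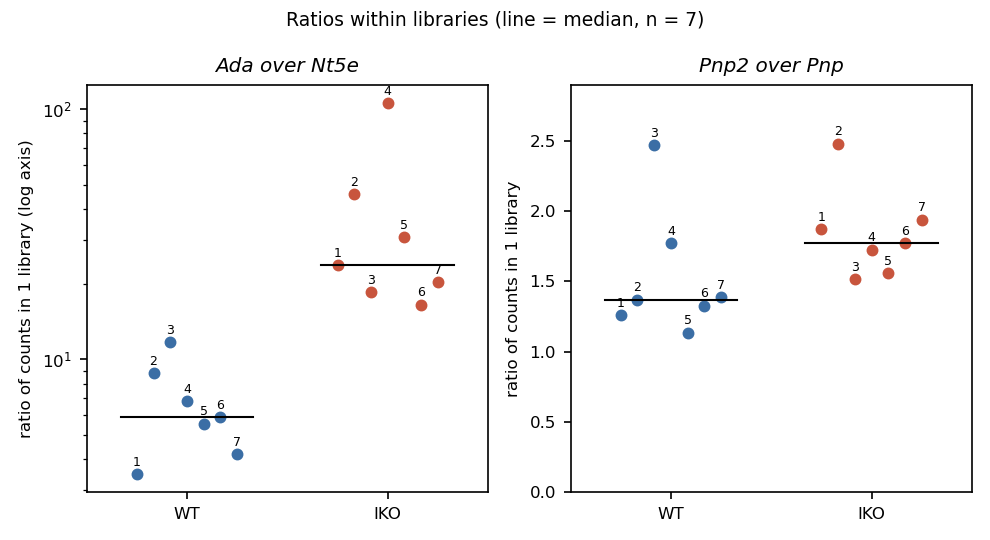
Ratio of counts within each library for Ada over Nt5e (left, log axis) and Pnp2 over Pnp (right, linear axis from 0) in 7 WT (blue) and 7 IKO (red) mice, with the replicate number above each point and a line at the median. The Ada over Nt5e ratio does not overlap between the genotypes (3.49 to 11.7 and 16.5 to 106), while the Pnp2 over Pnp ratio does.

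Gda, guanine deaminase, turns guanine into xanthine, and Xdh, xanthine dehydrogenase, oxidizes hypoxanthine and xanthine to urate. For Gda, WT mice had between 273 and 1559 CPM with a median of 622, and IKO mice between 854 and 2719 CPM with a median of 1219. All 7 IKO mice were above the WT median and 4 WT mice were below the lowest IKO mouse, but WT 3, WT 5 and WT 6 lay within the IKO range. Its fold was 1.80 (95% interval 1.05 to 3.08).

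For Xdh, WT mice had between 129 and 487 CPM with a median of 238, and IKO mice between 176 and 622 CPM with a median of 395. Of the IKO mice, 3 were above the highest WT mouse, while IKO 2, the lowest of them at 176 CPM, was under the WT median. The fold was 1.53 (95% interval 0.962 to 2.42).

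Hprt and Adk return bases and adenosine to the nucleotide pool, and Ampd3 deaminates AMP to IMP. Hprt was the steadiest of the 10 genes in WT mice, with 50.3 to 64.7 CPM and a median of 57.4, against 45.4 to 76.2 CPM and a median of 62.9 in IKO mice. Its fitted fold was 1.05 (95% interval 0.874 to 1.27). Adk had 34.0 to 92.2 CPM in WT and 52.7 to 92.5 CPM in IKO mice, a fold of 1.07 (95% interval 0.797 to 1.43). Ampd3, counted 87 to 428 times per library, had 7.07 to 15.1 CPM in WT and 5.13 to 12.8 CPM in IKO mice, a fold of 0.943 (95% interval 0.649 to 1.37). In all 3 genes the genotypes overlapped.

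**Figure D3:**
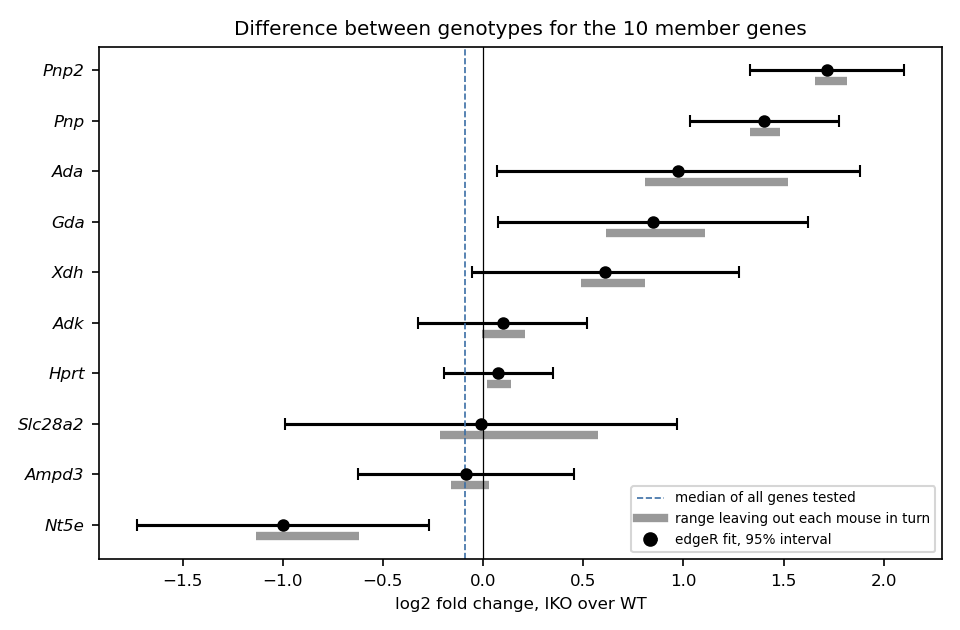
Log2 fold change of IKO over WT (horizontal axis) for the 10 genes, with the edgeR estimate and its 95% interval in black and the range of estimates from leaving out each of the 14 mice in turn as grey bars. Estimates run from -0.997 for Nt5e to 1.72 for Pnp2, and the grey bars of Slc28a2 (-0.21 to 0.57), Ada (0.81 to 1.52) and Nt5e (-1.13 to -0.62) are the widest.

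The scaling of the libraries bears on the genes with small differences. TMM factors ran from 0.931 to 1.53 in WT and from 0.579 to 0.967 in IKO mice, and with total counts in place of TMM the median log2 fold change of all genes moved from -0.09 to -0.49. On that scale Pnp and Pnp2 stood at 0.99 and 1.32, above the median of all genes, while Hprt and Adk went to -0.32 and -0.36, close to it. The direction of Hprt, Adk and Ampd3 is therefore not given.

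The levels of the 10 genes relative to each other were read from FPKM, which take gene length into account. Within each genotype, neighbours in the order of mean FPKM were compared in the same mice by an exact two-sided sign-flip permutation test, adjusted over 9 pairs, whose smallest possible unadjusted p is 0.0156. In WT mice the order was Ada (241 ± 216 FPKM, SD, n = 7), Gda (126 ± 71.9), Pnp2 (56.4 ± 12.1), Slc28a2 (46.7 ± 41.7), Hprt (44.2 ± 4.04), Xdh (29.6 ± 13.5), Pnp (15.3 ± 3.85), Nt5e (7.78 ± 4.95), Adk (7.06 ± 2.15) and Ampd3 (1.78 ± 0.520). None of the 9 neighbouring pairs passed, and the smallest adjusted p was 0.0563 by the exact test, shared by 5 pairs. Among them were Xdh over Pnp and Adk over Ampd3, each in 7 of 7 mice and at the smallest unadjusted p the test can give. Whether such a pair passes depends on how many other pairs also reach that p. The lack of passing pairs in WT mice therefore does not show that their levels are alike.

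In IKO mice the order was Ada (488 ± 120 FPKM, SD, n = 7), Gda (233 ± 105), Pnp2 (190 ± 36.5), Hprt (47.8 ± 7.02), Slc28a2 (47.5 ± 24.4), Xdh (46.3 ± 16.9), Pnp (41.5 ± 7.01), Adk (7.74 ± 1.65), Nt5e (3.99 ± 1.51) and Ampd3 (1.73 ± 0.573). The steps from Pnp2 to Hprt, from Pnp to Adk and from Adk to Nt5e each held in 7 of 7 mice (exact permutation test, adjusted p = 0.0469). The genes were selected on a contrast that uses these IKO levels. Nothing is therefore read from steps that passed in IKO but not in WT mice. No step between neighbours passed in the run of Hprt, Slc28a2, Xdh and Pnp, with adjusted p from 0.824 to 0.906 in the exact test. Pairs farther apart in the run were not compared, so their levels are not shown to be alike. Ada was first and Ampd3 last in both genotypes, and Nt5e stood above Adk in WT and below it in IKO mice. The WT pair did not pass, however (Nt5e higher in 3 of 7 mice, exact test, adjusted p = 0.938). For Ada, the WT mean rests in part on WT 2. The places of Pnp and Pnp2 in both orders depend on how reads matching both copies were counted, which is not given.

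The genes differed in how much they varied among mice of 1 genotype. In WT mice the coefficient of variation of CPM was 89.9% for Ada, 89.5% for Slc28a2, 63.6% for Nt5e, 56.4% for Gda and 44.8% for Xdh, and 8.65% to 30.0% for the other five. WT 2 was the highest WT mouse for Ada, Slc28a2 and Nt5e, with 1433, 601 and 163 CPM against 600.0, 166 and 77.1 CPM in the next WT mouse. Among IKO mice, IKO 4 had the lowest Slc28a2 (47.3 CPM) and Nt5e (13.0 CPM) and the highest Ada (1377 CPM). The deviations of Nt5e and Slc28a2 from their genotype means went together over the 14 mice (Pearson r = 0.93), as did those of Gda and Xdh (r = 0.76), while Pnp and Pnp2 had r = 0.45. These values describe 14 libraries that share their scaling, and mice such as WT 2 and IKO 4 weigh heavily in them.

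**Figure D4:**
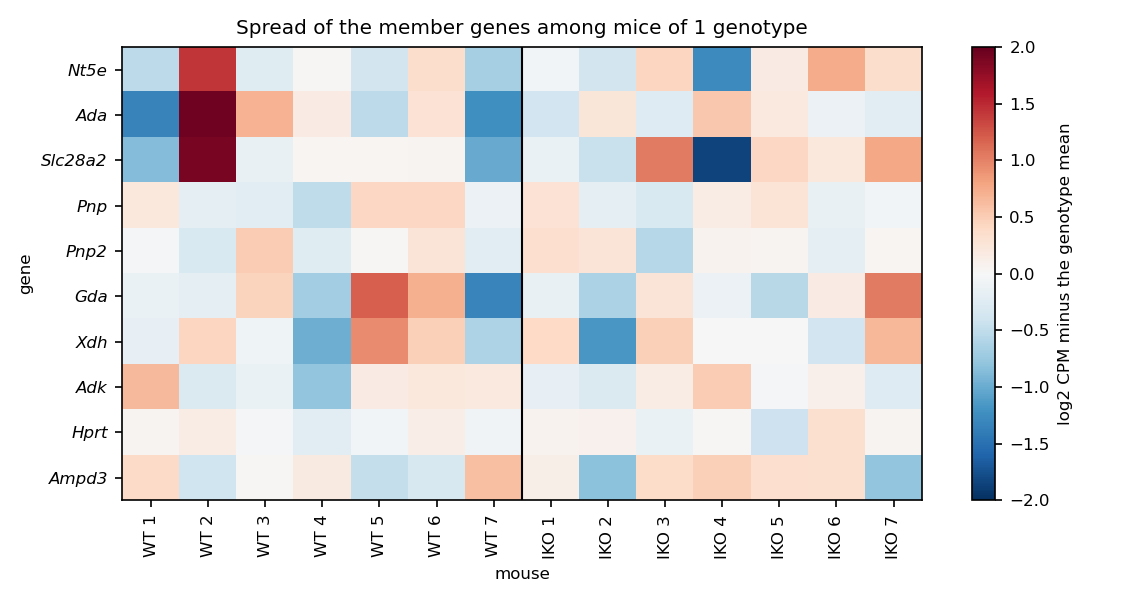
Heat map of the log2 CPM of the 10 genes (rows) in each mouse (columns) minus the mean of its genotype, with red above and blue below that mean and a line between the 7 WT and 7 IKO mice. WT 2 is red for Nt5e, Ada and Slc28a2, IKO 4 is blue for Nt5e and Slc28a2, and Gda and Xdh lie on the same side of the mean in WT 1, WT 4 to WT 7, IKO 2, IKO 3, IKO 5 and IKO 7.

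Nt5e, Ada and Slc28a2 are known as genes of the villus tip, where nucleosides are taken up. Each of the 10 genes was compared within each genotype with a score of 6 other tip markers (the mean log2 CPM of Apoa4, Apobec1, Creb3l3, Egfr, Klf4 and Enpp3), 20 relations in all. In WT mice Slc28a2 followed the score (r = 0.84, exact permutation p = 0.000794, adjusted p = 0.0159 over 20 relations), but Spearman's rho of 0.89 did not pass (exact permutation p = 0.0123, adjusted p = 0.123), and r was 0.68 without WT 1 and WT 7, the mice farthest from the median score. Nt5e in WT mice had r = 0.77 and rho = 0.79 (exact permutation, adjusted p = 0.0906 and 0.320), and r = 0.63 without the same mice. Ampd3 went the other way in WT mice, with r = -0.93 and rho = -0.93 (exact permutation, adjusted p = 0.0714 and 0.123), and r = -0.79 without them.

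In IKO mice 0 of the 10 relations with the tip score passed, with adjusted p of 0.0906 or more in the exact permutation test of r. The relations of Slc28a2, Nt5e and Ada rested on IKO 2 and IKO 4. Slc28a2 had r = 0.85 and rho = 0.61 (exact permutation, adjusted p = 0.0906 and 0.544), and r = -0.32 without these mice. Nt5e had r = 0.85 and rho = 0.46 (exact permutation, adjusted p = 0.0906 and 0.544), and r = -0.40 without them. Ada had r = -0.78 in IKO mice and 0.69 in WT mice (exact permutation, adjusted p = 0.0906 and 0.260), and 0.18 and 0.23 without the farthest mice of each genotype. Other relations in IKO mice had a larger r without IKO 2 and IKO 4, with r going from -0.64 to -0.90 for Adk, from -0.17 to -0.72 for Ampd3, from 0.09 to 0.63 for Pnp and from -0.07 to 0.81 for Pnp2, over the 5 mice left. Without IKO 4 alone, r was 0.12 for Adk, 0.29 for Ampd3 and 0.02 for Pnp2, so the values of these genes were not stable. In that setting r was 0.58 for Pnp, 0.47 for Slc28a2, 0.50 for Nt5e and -0.48 for Ada. Of the members known from the tip, Ada stood at a log2 fold change of 0.97, Slc28a2 at -0.01 and Nt5e at -0.997. The 6 tip markers all had fitted values above 0, with a median log2 fold change of 0.55. With total counts in place of TMM, 4 of the 6 were above 0 and the median was 0.27. They summed to 1135 to 8252 CPM in WT and 1874 to 9062 CPM in IKO mice, and 0 of the 6 were called, with 0 at an unadjusted edgeR p under 0.05 and 0 called by DESeq2. Their part in the differences of the 10 genes was not tested.

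The genes whose deviations from the genotype means were most like those of each member were sought among genes with a mean log2 CPM of at least 1, over the 14 mice. They were Slc13a2 (r = 0.94), Abcd4 and Slc23a4 for Nt5e, Slc13a2 (r = 0.96), Mst1r and Abcd4 for Slc28a2, and Odf3b (r = 0.93), E430018J23Rik and Apba3 for Ada. They were Arf1 (r = 0.91), Nars and Hadhb for Pnp, Vti1b (r = 0.88), Psmd9 and Oaz1-ps for Pnp2, Chuk (r = 0.94), Gk and Sec23a for Gda, and Pld1 (r = 0.94), Specc1l and Ppip5k1 for Xdh. For the others they were Tmf1 (r = 0.83), Rbbp8 and D330045A20Rik for Hprt, Foxa1 (r = 0.92), Amot and Ccdc117 for Adk, and Agfg2 (r = 0.91), Epb41l4a and Suox for Ampd3. Nt5e and Slc28a2 shared 2 of their 3 nearest genes, Slc13a2 and Abcd4.

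The surrounding pathways were covered by 9 lists of further genes, 77 of which were tested. At an edgeR adjusted p under 0.05 over all genes, 4 of the 77 rose and 1 fell in IKO mice, or 6.49% against 8.67% of all genes tested. The median log2 fold change of the 77 genes was -0.05, against -0.09 over all genes.

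**Figure D5:**
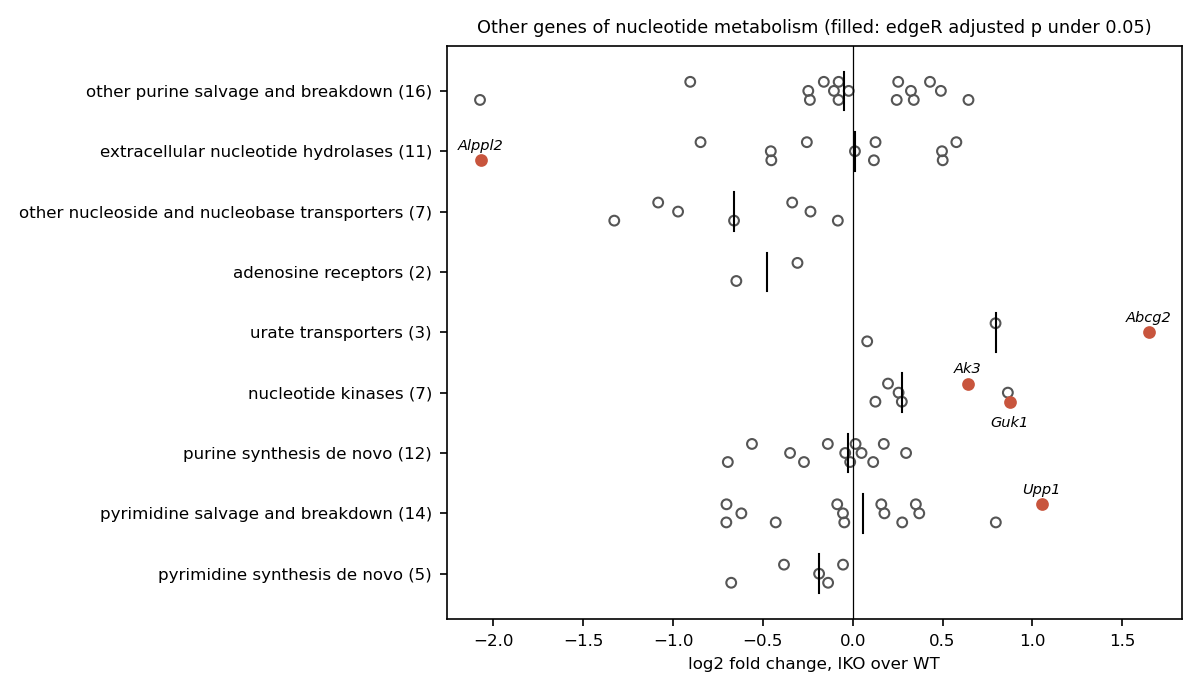
Log2 fold change of IKO over WT (horizontal axis) of the tested genes of 9 pathway lists (rows, with the number tested in brackets), where each circle is a gene, filled circles passed the edgeR test at an adjusted p under 0.05 and black bars mark list medians. The genes that passed are Alppl2 at -2.07 and Abcg2, Upp1, Guk1 and Ak3 between 0.64 and 1.65.

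Among genes that handle the end products, Abcg2, which exports urate from enterocytes into the lumen, was the largest rise. WT mice had between 92.2 and 186 CPM with a median of 107, and IKO mice between 90.4 and 536 CPM. All IKO mice but IKO 4, at 90.4 CPM, were above every WT mouse. The log2 fold change was 1.65 (standard error 0.32, edgeR adjusted p = 0.00902). The other urate transporters tested, Slc17a4 and Slc2a9, were at 0.80 (standard error 0.29, edgeR adjusted p = 0.0882) and 0.08 and did not pass. Uox, urate oxidase, was too low to test.

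Of the 16 other genes of purine salvage and breakdown that were tested, 0 were called in either direction by edgeR, with 2 at an unadjusted p under 0.05 and 1 called by DESeq2. The 2 with the smallest p were Ahcy, which splits S-adenosylhomocysteine into adenosine and homocysteine, and Itpa, which clears inosine triphosphate. Ahcy stood at a log2 fold change of 0.64 (standard error 0.20, edgeR adjusted p = 0.0558), with 62.9 to 112 CPM in WT and 84.5 to 186 CPM in IKO mice. Itpa stood at 0.34 (standard error 0.15, edgeR adjusted p = 0.140). Aprt, which salvages adenine, was at 0.49 (standard error 0.28, edgeR adjusted p = 0.241). Fitted values fell on both sides, 7 above 0 and 9 below it.

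Among 11 extracellular nucleotide hydrolases tested, 1 fell and 0 rose. Alppl2, an alkaline phosphatase gene, had 1.61 to 5.50 CPM in WT and 0.468 to 1.20 CPM in IKO mice, so that every IKO mouse was below every WT mouse. Its log2 fold change was -2.07 (standard error 0.34, edgeR adjusted p = 0.00355), at a low level of 497 counts over the 7 WT and 92 over the 7 IKO mice. Alpi, the main intestinal alkaline phosphatase gene, had 969 CPM on average in WT and 708 CPM in IKO mice, and did not pass (log2 fold change -0.45, standard error 0.37, edgeR adjusted p = 0.421). Alkaline phosphatase genes are near copies of each other, so reads may be split among them.

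The 7 other nucleoside and nucleobase transporter genes all had fitted values below 0, with a median log2 fold change of -0.66, and 0 were called by edgeR, with 2 at an unadjusted p under 0.05 and 1 called by DESeq2. Slc28a1, the pyrimidine-selective concentrative transporter CNT1, had 10.5 to 102 CPM in WT and 5.90 to 34.3 CPM in IKO mice (log2 fold change -1.33, standard error 0.48, edgeR adjusted p = 0.0868). Slc29a1, the equilibrative transporter ENT1, stood at -1.08 on the log2 scale (standard error 0.51, edgeR adjusted p = 0.161), or at -0.12 without WT 4. Its highest level by far, 41.8 CPM, was that of WT 4, the mouse with high smooth muscle RNA, against 3.87 to 6.86 CPM in the other WT mice. The adenosine receptors Adora2a and Adora2b were low, with means of 1.70 to 3.36 CPM, and 0 of the 2 were called by edgeR or by DESeq2, with 0 at an unadjusted p under 0.05. Their log2 fold changes were -0.65 (edgeR adjusted p = 0.166) and -0.31 (edgeR adjusted p = 0.783), and the sign of Adora2b turned when WT 5 was left out.

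Nucleotide kinases, which rebuild di- and triphosphates, had fitted values above 0 for all 7 genes tested (3 of 7 with total counts in place of TMM), and 2 of the 7 rose. Guk1, guanylate kinase, had 48.5 to 63.7 CPM in WT and 60.6 to 156 CPM in IKO mice (log2 fold change 0.87, standard error 0.17, edgeR adjusted p = 0.00934), with 6 of 7 IKO mice above every WT mouse. Ak3, the GTP:AMP phosphotransferase of the mitochondrial matrix, was at 0.64 (standard error 0.17, edgeR adjusted p = 0.0353), with all 7 IKO mice above every WT mouse. The call of Ak3 was lost in 9 of the 14 fits that leave out a mouse, those without WT 7 and without IKO 1 among them.

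Purine synthesis de novo showed 0 calls among 12 genes by edgeR, with 1 at an unadjusted p under 0.05 and 0 called by DESeq2. Prps2, which makes the activated ribose that both synthesis and salvage use, was at -0.56 (edgeR adjusted p = 0.134), and Ppat, which commits it to purine synthesis, at -0.70 (edgeR adjusted p = 0.218). The 5 genes of pyrimidine synthesis de novo also had 0 calls by edgeR, 1 at an unadjusted p under 0.05 and 0 by DESeq2, and Ctps2 (-0.68) and Ctps (-0.38), the CTP synthases, had adjusted p of 0.0973 and 0.467 in edgeR.

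Of 14 genes of pyrimidine salvage and breakdown, 1 rose and 0 fell. Upp1, uridine phosphorylase, the pyrimidine counterpart of Pnp, had 217 to 467 CPM in WT with a median of 271 and 359 to 1061 CPM in IKO mice. All 7 IKO mice were above the WT median and 4 were above WT 3, the highest WT mouse. The log2 fold change was 1.05 (standard error 0.26, edgeR adjusted p = 0.0234), a call that was lost without WT 7.

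Dividing cells draw on nucleotide synthesis, and the 6 markers of crypt stem and dividing cells all had fitted values below 0 (median log2 fold change -1.04). Of these, 0 were called by edgeR, with 4 at an unadjusted p under 0.05 and 1 called by DESeq2, and they summed to 121 to 351 CPM in WT and 85.8 to 220 CPM in IKO mice. Their part in the values of the synthesis genes was not tested.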

How the data were processed

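RNA-seq libraries of scraped ileum mucosa from 7 WT and 7 IKO mice were used. The deposited counts are whole reads per gene without normalization, which the authors made with HISAT2 v2.0.5 and featureCounts v1.5.0-p3 on mm10, per the labels. Strandedness and the treatment of reads matching several genes are not given in the sources used here. The deposited FPKM equal counts per gene length divided by DESeq2 size factors times 1 constant (largest relative deviation 5.11e-15).

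Genotypes came from the sample titles. Genes passing filterByExpr entered a quasi-likelihood fit (glmQLFit and glmQLFTest of edgeR 4.0.16 under R 4.3.3) after TMM scaling. Genotype was its sole term, and p-values were adjusted by Benjamini-Hochberg. CPM use the TMM factors, and log2 CPM add a prior count of 2. Standard errors are the log2 fold change over the square root of F. The fit was tested on simulated counts. Nothing in the labels names separate batches.

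The 10 members, the lists and the tests were chosen with earlier results of these data known. The text names the members, Ncor1 and each listed pathway gene past an adjusted p of 0.05, at most 6 a list. Where none passed, the 2 with the smallest p are named. For each member the 3 most similar genes outside the 10 are also named. Aprt, Alpi, Slc17a4 and Slc2a9 were named after their values were seen, and 1 listed pathway gene is not reported here and is left out of its list's counts. Alternatives were DESeq2 1.42.0, RLE, no low-count filter, a minimum of 10 counts per sample, mitochondrial genes left out, limma 3.58.1 on log2 FPKM with pseudocounts of 1 and 0.1 (genes above 0.5 FPKM in at least 7 samples, or no filter), the replicate block, and libraries left out. Total counts without factors, Pnp and Pnp2 summed, and WT 2, WT 3, WT 4 and IKO 4 left out together were added after the data were seen. Sequences are from GENCODE M21 transcripts and RefSeq promoters.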

Additional observations from a re-analysis of the deposited data

Results flagged for a closer look

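In 50 groups of 7 mice (the 10 genes and 15 named pathway genes in each genotype), the highest or lowest log2 CPM was set apart from the others by more than Dixon's critical share of the group's range at 95% in 4. Chance alone flags about 1 in 20 groups. Slc28a2 in WT 2 (601 CPM against 166 CPM in the next WT mouse) had a gap of 0.637 of the range. Slc29a1 in WT 4 (41.8 against 6.86 CPM) had a gap of 0.762, Abcg2 in WT 1 (186 against 122 CPM) one of 0.598, and Upp1 in WT 3 (467 against 302 CPM) one of 0.571. In each case the mouse was the highest of the WT mice.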

How the results depend on the processing

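Pnp and Pnp2 were higher in IKO mice and called under each of the 26 alternatives run for them. Their log2 fold changes ran from 0.99 to 1.48 and from 1.32 to 1.81, the lowest with total counts and no scaling factors. With their counts summed, 1 member was called higher, by construction. Nt5e kept its direction in 26 of 26 alternatives (-1.26 to -0.43). It was the 1 member called lower by DESeq2 and the 1 called lower with total counts. Over all genes, DESeq2 called 1382 of the 29041 genes with any count lower, and total counts gave 3185 of 13846. Nothing is read from these calls of Nt5e. Ada kept its direction in 26 of 26 (0.68 to 1.83), and was called without WT 2 and without WT 2, WT 3, WT 4 and IKO 4. The direction of Slc28a2 held in 13 of 26 (-0.22 to 0.86). Members called higher ran from 2 to 3 with each mouse left out.

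Over all genes, calls moved in both directions, higher and lower in IKO mice. DESeq2 gave 1189 and 1382, no filter 346 and 162, and the fit without IKO 4, WT 3 and WT 4 gave 276 and 157. Total counts with no factors gave 195 and 3185. Limma on log2 FPKM gave 328 lower calls with a pseudocount of 1, 317 with 0.1, and 160 with no filter. Leaving out each mouse gave 335 to 684 higher and 180 to 687 lower calls, the fewest without IKO 5. The split also moved, from 50.6% of calls higher in the reported fit to 43.5% with at least 10 counts in every sample, 69.0% with the pseudocount of 0.1, 73.9% with no filter on FPKM and 5.77% with total counts.

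Among pathway genes, DESeq2 called 1 other salvage gene (Ahcy, log2 fold change 0.68), 2 genes higher (Abcg2 and Slc17a4) and 2 lower (Alppl2 and Slc28a1) among hydrolases, transporters and receptors. With at least 10 counts in every sample, 0 of the latter were called lower, since Alppl2 was not tested. Leaving out each mouse gave 0 to 1 calls for other salvage genes (Ahcy without IKO 6), 1 to 2 higher calls for hydrolases, transporters and receptors (2 without WT 2) and 1 to 3 for synthesis, kinase and pyrimidine genes, where Ak3 lost its call in 9 of 14 such fits and Upp1 in 1. Leaving out each mouse took Adora2b from -0.61 to 0.25, and limma with a pseudocount of 0.1 put it at 0.087.

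Mice with the same number are different animals. Their deviations from the genotype means correlated by -0.31 to 0.23, and a mouse was most like its own number in 1 of 7 cases, so the numbers do not pair the mice. A fit with the number as a replicate block called 226 genes higher and 136 lower, 2 members higher, and 0 of the synthesis, kinase and pyrimidine genes, and it put Adora2b at 0.0065. The cause was not tested for any of these changes. Counts per library were low for Ampd3 (87 to 428), Alppl2 (8 to 105), Adora2a (17 to 116), Adora2b (3 to 118) and Ppat (11 to 167), which limits their precision. Nothing in the labels says whether the mice were processed apart. The edgeR p-values set the genotype difference against the spread between these libraries. With 1 library per mouse, differences between mice and between library preparations cannot be told apart in that spread.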
